A study of Mus musculus with 16 samples.

Results

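The cyclin-dependent kinase inhibitors are 7 mouse genes: the 3 CIP/KIP genes Cdkn1a (p21), Cdkn1b (p27) and Cdkn1c (p57), and the 4 INK4 genes Cdkn2a (the Ink4a/Arf locus), Cdkn2b (p15), Cdkn2c (p18) and Cdkn2d (p19). They were followed in podocyte RNA after an immunotoxin injury. Every array probe whose transcript annotation maps to one of these symbols was taken and each probe was read on its own. This gave 10 probes out of 55681 on the array, for 7 genes out of 20145 that could be named.

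The study measured 16 single-colour Agilent expression arrays, 4 in each of 4 groups, all on the C57BL/6N background. Podocytes are the filtering epithelial cells of the kidney glomerulus. In RiboTag mice, cells that express Cre recombinase carry a haemagglutinin tag on a ribosomal protein, so that precipitating the tag pulls down the polysomes, and the messages being translated, of those cells. Here Cre was driven by Nphs1, the nephrin gene, which is active in podocytes. The day 4 and day 7 groups were tagged podocyte RNA of Nphs1-RiboTag-NEP25 mice that had received 1 tail vein injection of the immunotoxin LMB2, at 0.625 ng per g body weight, 4 or 7 days earlier. The normal podocyte group was tagged podocyte RNA of Nphs1-RiboTag mice, and the glomerular group was RNA from polysomes of uninjured Nphs1-RiboTag mice that had not been precipitated. NEP25 mice carry human CD25 on podocytes, which is the receptor LMB2 binds. The series text names the NEP25 transgene for the injected mice only, so the transgene and the toxin cannot be told apart against normal podocytes. The labels give no age, and do not say whether each array is a separate animal; if they are not, the p-values measure technical spread only.

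Cyclin-dependent kinases, switched on by cyclins, drive a cell through DNA replication and division. INK4 proteins bind Cdk4 and Cdk6 and keep them from their D-type cyclins, whereas CIP/KIP proteins bind cyclin and kinase together and act on the later complexes. Podocytes are long-lived cells that have left the cell cycle, and Cdkn1c is a known marker of that state, while Cdkn1a is a classical target of the p53 damage response.

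The RefSeq promoter windows (build GRCm38.p6, 250 bases before to 50 after a transcript start) matched 6 of the 7 members with 9 windows. A choice of 6 is shown, because Cdkn1a, Cdkn2a and Cdkn2b were called higher and Cdkn1b and Cdkn2d lower than in normal podocytes after LMB2. The windows of Cdkn2c, which was not called, and the downstream window of Cdkn2a are not shown. They are written 5′ to 3′ on the gene's strand, and capitals mark motif letters found by a search of both strands. The windows are the Cdkn1a start at chr17:29090729-29091028 (plus strand), the Cdkn1a start at chr17:29093519-29093818 (plus strand), the Cdkn2a upstream start at chr4:89294570-89294869 (minus strand), the Cdkn2b start at chr4:89310983-89311282 (minus strand), the Cdkn1b start at chr6:134920151-134920450 (plus strand) and the Cdkn2d start at chr9:21291160-21291459 (minus strand).
Cdkn1a first start: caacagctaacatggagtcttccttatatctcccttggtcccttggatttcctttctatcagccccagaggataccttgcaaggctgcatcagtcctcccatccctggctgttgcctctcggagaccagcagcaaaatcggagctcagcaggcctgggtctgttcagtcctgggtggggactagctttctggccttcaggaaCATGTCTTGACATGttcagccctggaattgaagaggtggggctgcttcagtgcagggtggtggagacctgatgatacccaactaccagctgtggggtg
Cdkn1a second start: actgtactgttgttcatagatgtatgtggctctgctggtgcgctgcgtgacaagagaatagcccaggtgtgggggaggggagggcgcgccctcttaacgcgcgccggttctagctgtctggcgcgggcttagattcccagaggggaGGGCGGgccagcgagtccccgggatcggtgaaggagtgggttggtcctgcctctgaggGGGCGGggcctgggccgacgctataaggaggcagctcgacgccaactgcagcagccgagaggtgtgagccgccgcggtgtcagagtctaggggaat
Cdkn2a upstream start: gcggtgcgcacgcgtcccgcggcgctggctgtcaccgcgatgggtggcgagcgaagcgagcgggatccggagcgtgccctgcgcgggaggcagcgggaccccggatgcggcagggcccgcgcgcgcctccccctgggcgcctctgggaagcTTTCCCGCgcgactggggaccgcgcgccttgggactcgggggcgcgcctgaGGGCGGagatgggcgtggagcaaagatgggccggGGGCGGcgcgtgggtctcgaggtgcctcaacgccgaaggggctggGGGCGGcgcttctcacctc
Cdkn2b: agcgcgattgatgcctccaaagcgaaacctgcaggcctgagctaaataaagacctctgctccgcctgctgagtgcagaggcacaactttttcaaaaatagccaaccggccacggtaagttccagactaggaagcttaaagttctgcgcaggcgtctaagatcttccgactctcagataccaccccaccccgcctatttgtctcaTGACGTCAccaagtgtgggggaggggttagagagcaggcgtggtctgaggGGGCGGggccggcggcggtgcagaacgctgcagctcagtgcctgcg
Cdkn1b: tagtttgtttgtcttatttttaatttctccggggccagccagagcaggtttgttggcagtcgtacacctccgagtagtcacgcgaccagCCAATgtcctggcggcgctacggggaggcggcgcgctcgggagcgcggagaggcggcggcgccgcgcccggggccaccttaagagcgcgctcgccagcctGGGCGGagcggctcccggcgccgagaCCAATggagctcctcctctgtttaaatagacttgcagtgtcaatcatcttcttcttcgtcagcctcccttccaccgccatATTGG
Cdkn2d: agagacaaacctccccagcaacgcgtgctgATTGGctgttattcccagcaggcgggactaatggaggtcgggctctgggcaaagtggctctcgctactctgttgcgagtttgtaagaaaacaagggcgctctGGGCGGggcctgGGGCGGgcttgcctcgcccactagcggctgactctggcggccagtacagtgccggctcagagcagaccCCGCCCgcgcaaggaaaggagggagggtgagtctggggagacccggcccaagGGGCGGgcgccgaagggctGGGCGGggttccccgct

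The motifs searched were the GC box GGGCGG, the TATA box TATAAA, the CCAAT box CCAAT, the E-box CACGTG, the AP-1 site TGANTCA, the cAMP response element TGACGTCA, the Egr site GCGTGGGCG, the E2F sites TTTCCCGC and TTTGGCGC, the STAT-like site TTCNNNGAA, the C/EBP-ATF site TGATGCAA and the p53 decamer core pair, which is CATG followed by CATG after a gap of 6 bases. The GC box and the Egr site can share letters. The first Cdkn1a window held the p53 core pair, beginning at position -48 from the start site, and 0.712% of 32851 promoters of this length hold those letters. The second Cdkn1a window held 2 GC boxes, and 35.7% of promoters hold a GC box. The upstream Cdkn2a window held 3 GC boxes and the E2F site TTTCCCGC, and 1.07% of promoters hold that E2F spelling. The Cdkn2b window held 1 GC box and the cAMP response element, which 1.79% of promoters hold. The Cdkn1b window held 1 GC box and 3 CCAAT boxes, counting the opposite strand, and 37.4% of promoters hold a CCAAT box. The Cdkn2d window held 5 GC boxes and 1 CCAAT box, counting the opposite strand, and the downstream Cdkn2a window held 1 of each. These are matches of letters and no binding was measured.

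A level is the log2 of the scanner's processed signal minus that array's 75th percentile, so 0 is a bright probe and each step of 1 is a doubling within that array. A probe was tested when, in at least 1 group, all 4 arrays read it well above local background. That held for 29697 probes, among them 9 of the 10 member probes and all 7 members. Calls are limma's at an adjusted p under 0.05 (Benjamini-Hochberg over all tested probes). Because equal amounts of RNA were labelled and levels are relative to each array, fewer cells of a type and less RNA per cell cannot be told apart. No spot was saturated, and 49.3% to 57.5% of spots were well above background. All 8 arrays of LMB2-treated mice lay on a different slide from the 8 arrays of uninjured mice, so slide and injury cannot be told apart. On the slides, all day 7 arrays lay in row 1 and all day 4 arrays in row 2, so row and day cannot be told apart either. Replicates 1 and 2 of both uninjured groups lay in row 1 and replicates 3 and 4 in row 2. A row term in the fit therefore came from the uninjured arrays alone, and was carried over to the other slide.

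The podocyte label was checked on 13 measured podocyte markers. All 13 were higher in normal podocyte than in glomerular RNA, with Nphs1, which encodes nephrin, 2.32 ± 0.16 and the transcription factor gene Wt1 2.30 ± 0.10 higher on the log2 scale (difference ± SE, n = 4 each). Of the markers of other cells, all 12 endothelial, all 11 mesangial and smooth muscle, 11 of 12 tubule, 9 of 12 leukocyte and 5 of 7 parietal epithelial genes were called lower in podocyte RNA, and 1 parietal gene was called higher. Over all 14574 tested genes, 51.1% were called higher and 27.4% lower in podocyte RNA, with a median difference of 0.38. The endothelial median difference was -4.06, and all 12 of those genes were still well above background on every podocyte array.

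At day 4 after LMB2 the family was split. By its probe with repeated spots, Cdkn1a was 20.8-fold higher than in normal podocytes, Cdkn1b and Cdkn2d were modestly lower, and Cdkn1c, Cdkn2b and Cdkn2c did not pass the test. Cdkn2a was below background in both groups. Of the 9 tested member probes, 4 were called (2 higher and 2 lower), against 29.8% of all tested probes (13.5% higher and 16.4% lower). The median difference of the member probes was 0.07, against -0.08 over all tested probes. On 4 of 9 member probes the day 4 and normal arrays did not overlap, and 31.6% of all tested probes did not overlap. With only the normal arrays of the same slide row, 1 member probe was called, Cdkn1a. In that setting 4810 of 29697 tested probes were called, against 8859 with all normal podocyte arrays.

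At day 7 Cdkn1a, Cdkn2a and Cdkn2b were higher and Cdkn1b and Cdkn2d lower than in normal podocytes. Of the 9 member probes, 6 were called (4 higher and 2 lower), against 53.0% of all tested probes (21.9% higher and 31.2% lower). The median difference of the member probes was 0.86, against -0.08 over all tested probes, and 6 of the 9 did not overlap between groups, against 46.0% of all tested probes. One of the called probes, that of Cdkn2a, met the background filter through the day 7 arrays alone, so its place in these counts is no support for a difference. The day 4 and day 7 comparisons share the normal podocyte arrays, so their values are given side by side and not compared.

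Between the days, day 7 podocytes had 3 member probes called higher than day 4 (the second Cdkn1a probe, Cdkn2a and Cdkn2b) and 1 lower (Cdkn1b). These were 4 of 9 member probes, against 26.7% of all tested probes (10.4% higher and 16.2% lower). Of the 9, 3 did not overlap between the days, against 28.6% of all tested probes. The Cdkn2a probe met the background filter through the day 7 arrays alone, so its place in these counts is no support for a difference.

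Without injury, the family differed between podocyte and glomerular RNA on every tested probe. Cdkn1c, Cdkn1b and Cdkn2d were higher in podocyte RNA, and Cdkn1a, Cdkn2a, Cdkn2b and Cdkn2c were lower. The Cdkn2a probe was above background on only 2 glomerular arrays and on no normal podocyte array. All 9 tested member probes were called (3 higher and 6 lower), against 71.8% of all tested probes (46.8% higher and 25.0% lower). The second Cdkn2b probe met the background filter through the glomerular arrays alone, so its place in these counts is no support for a difference. None of the 9 overlapped between the groups, and 65.2% of all tested probes did not overlap. The median difference of the member probes was -1.83, against 0.32 over all tested probes.

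**Figure D1:**
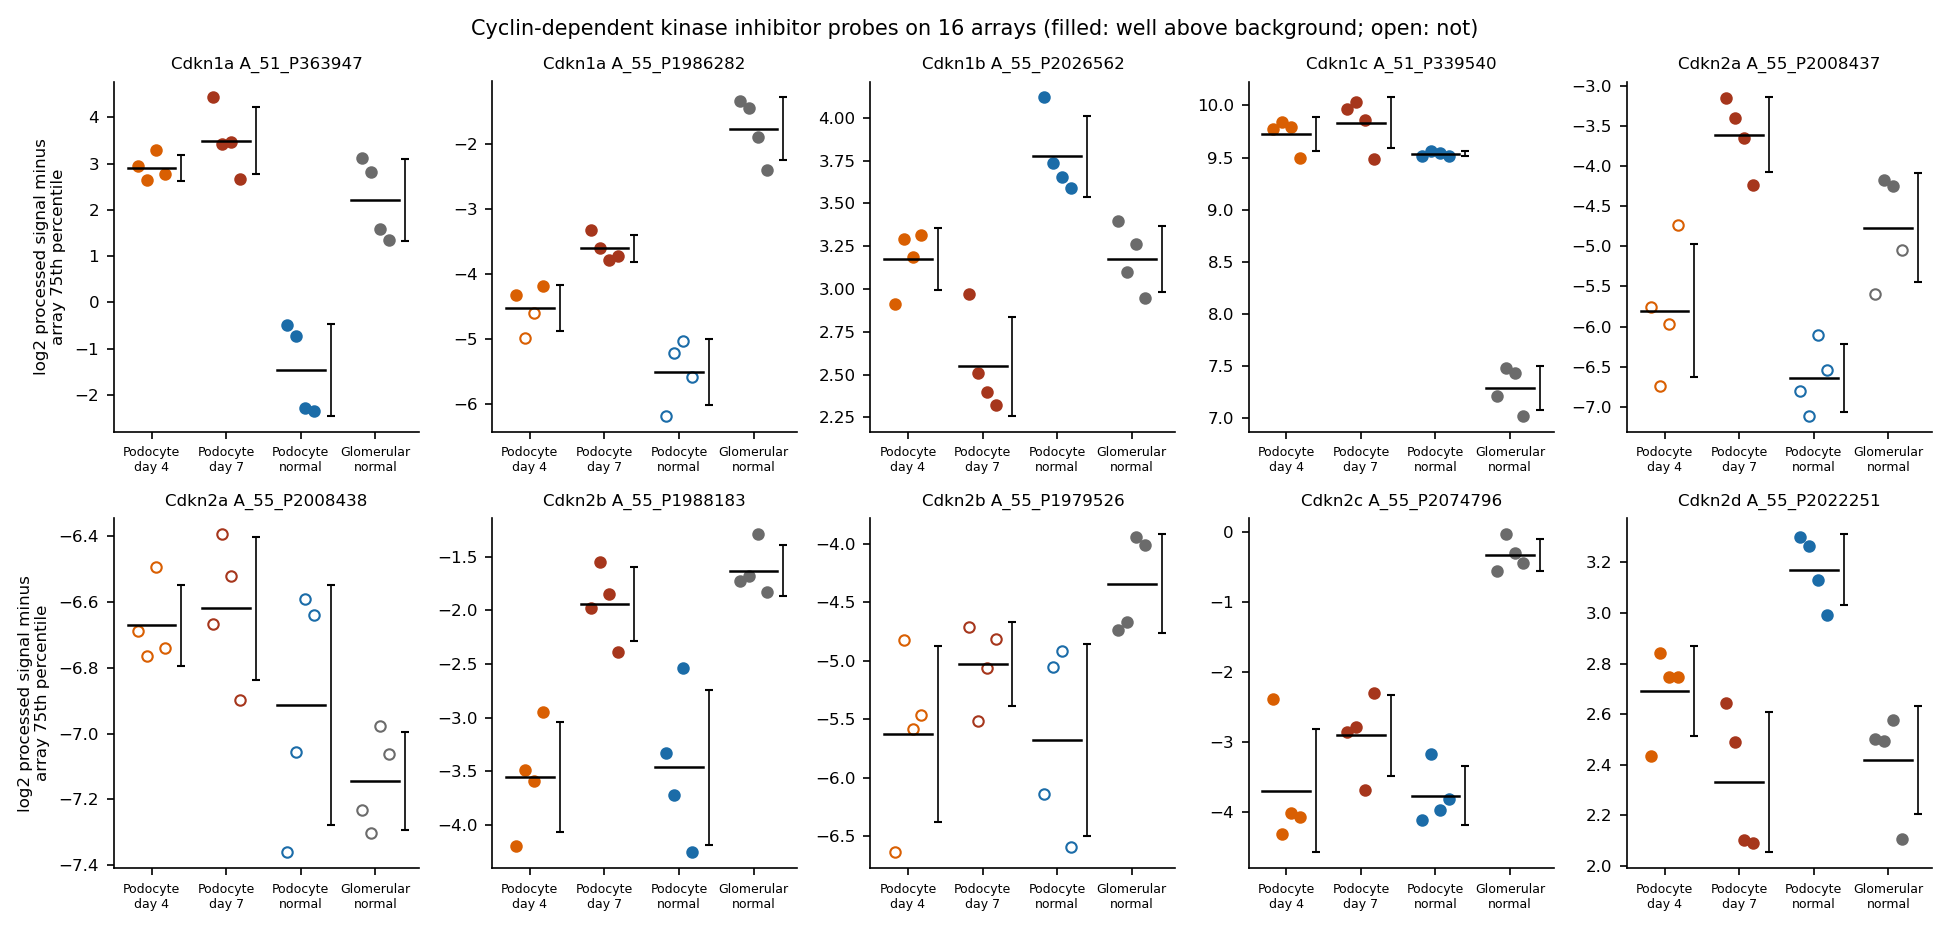
Level of each member probe on each of the 16 arrays, as log2 processed signal minus the array's 75th percentile, with day 4, day 7, normal podocyte and glomerular arrays from left to right; the long bar is the group mean and the bracket 1 SD (n = 4). Filled points are well above background. Cdkn1a shows day 4 and day 7 arrays at 2.64 to 4.43 and normal podocytes at -2.34 to -0.49, and the 4 normal podocyte arrays of Cdkn1c lie within 9.52 to 9.56.

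Cdkn1a, which encodes p21, was read by 2 probes. Probe A_51_P363947, printed at 10 spots on each array, had levels of 2.95, 2.64, 3.29 and 2.79 at day 4. It had 4.43, 3.42, 3.46 and 2.67 at day 7, against -0.49, -0.73, -2.29 and -2.34 in normal podocytes. Every LMB2 array was above every normal podocyte array. Cdkn1a was 4.38 ± 0.50 log2 units higher at day 4 (SE, 20.8-fold, adjusted p = 1.2e-05) and 4.96 ± 0.50 higher at day 7 (31.1-fold, adjusted p = 1.5e-06). After normexp, an alternative background correction that here adds an offset of 50 to every corrected signal, the differences were 3.70 and 4.26, both called. Days 7 and 4 overlapped and their difference of 0.58 ± 0.50 did not pass the test (95% interval -0.49 to 1.64, adjusted p = 0.43).

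In glomerular RNA the same Cdkn1a probe had levels of 3.12, 2.82, 1.58 and 1.35. All 4 were above the normal podocyte arrays, and the podocyte level was -3.68 ± 0.50 log2 units against the glomerular level (12.8-fold lower, adjusted p = 1.1e-05). In both uninjured groups the arrays of slide row 1 were the higher pair. The gap between rows was 1.70 log2 units in normal podocytes and 1.50 in glomerular RNA, and only 1.40% and 0.909% of tested probes had a gap that large in those groups. Within a row the podocyte level was -3.58 (row 1) and -3.78 (row 2) against the glomerular level, so this difference was as large within rows. Against normal podocytes of their own row, day 4 arrays were 5.23 higher and day 7 arrays 4.10 higher. With slide row as a term in the fit, the day 7 level was -1.02 against day 4 (adjusted p = 0.078), the opposite sign to the value without it. The row term came from the uninjured arrays alone, as each LMB2 group lay in 1 row, so it cannot separate row from day.

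**Figure D2:**
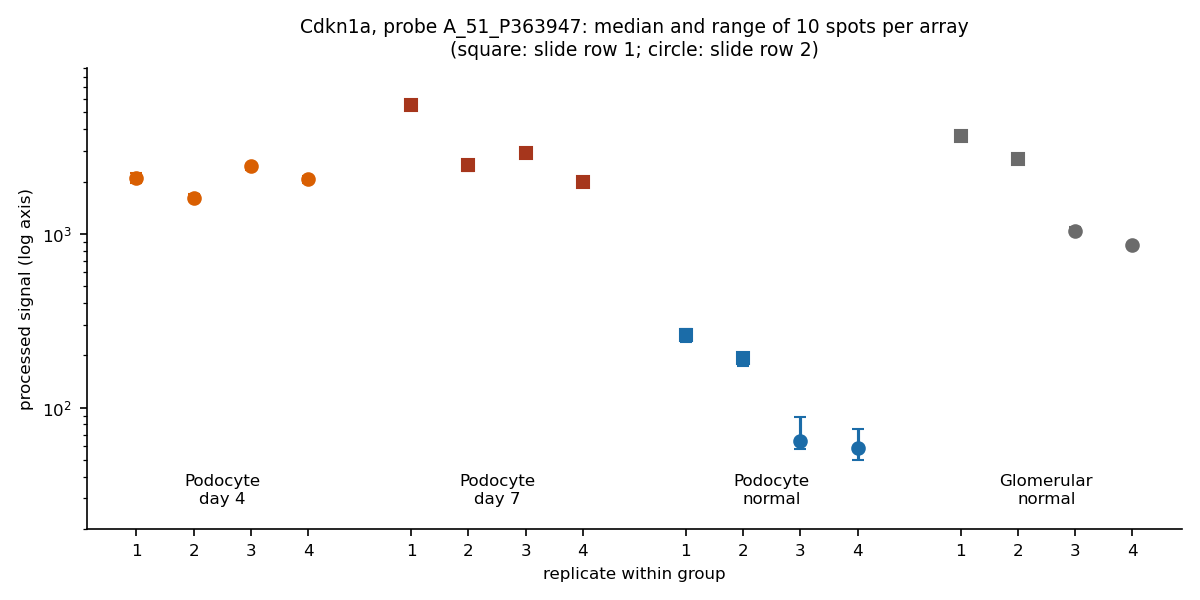
Processed signal of the Cdkn1a probe A_51_P363947 on each array (log axis), as the median and range of its 10 spots, with squares for slide row 1 and circles for slide row 2. The 4 normal podocyte arrays lie below all others, the other 3 groups overlap, and in both uninjured groups the 2 row 1 arrays lie above the 2 row 2 arrays.

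The repeated spots give the precision within an array. For this Cdkn1a probe the SD between spots was 0.018 to 0.18 log2 units, with a coefficient of variation of 1.28% to 12.8%. The spread between the 4 normal podocyte arrays (SD 0.99) was larger than the spread between spots on any array.

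The second Cdkn1a probe, A_55_P1986282, is annotated with another Cdkn1a transcript and was dim. Its levels were -4.32, -4.99, -4.61 and -4.19 at day 4, of which 2 were well above background. At day 7 they were -3.33, -3.61, -3.79 and -3.73, all above background, against -6.19, -5.23, -5.04 and -5.59 in normal podocytes, none of them above background. It was therefore at least 2.35-fold higher at day 7, where "at least" sets the group below background at the lowest signal that counts as detected. At day 4 the fitted difference was 0.99, and no fold can be given because only 2 of the day 4 arrays were above background. The adjusted p-values of the fitted differences were 0.013 at day 4 and 3.6e-05 at day 7. The day 4 call did not hold under quantile normalization (0.69, adjusted p = 0.057) or against normal podocytes of the same slide row (0.79, adjusted p = 0.059). After normexp the differences were 0.32 at day 4 (adjusted p = 0.044) and 0.55 at day 7 (adjusted p = 7.9e-04), the day 7 value being under the bound given. With quantile normalization added they were 0.12 (adjusted p = 0.44) and 0.31 (adjusted p = 0.023). Day 7 was 0.91 ± 0.27 above day 4 (adjusted p = 0.021), with no overlap, and that call ended without day 4 replicate 2 (0.76, adjusted p = 0.074) and without day 7 replicate 1 (0.82, adjusted p = 0.060), with row as a term (0.73, adjusted p = 0.20) and after normexp (0.23, adjusted p = 0.18).

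In glomerular RNA this probe had -1.34, -1.45, -1.90 and -2.41, above every podocyte array, and the normal podocyte level was at least 8.39-fold lower (adjusted p = 2.1e-08); after normexp the difference was -1.23, still called but under that bound. Both Cdkn1a probes were called in the same direction in each comparison with normal podocytes. As fitted, the first probe rose 3.39 log2 units more than the second at day 4 and 3.06 more at day 7. An exact permutation test of the per-array difference between the probes called neither (adjusted p = 0.11 each). The smallest unadjusted p it can reach is 0.029. The second probe was below background in normal podocytes, so these values cannot tell how far the sizes of the changes differed.

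Cdkn1b, which encodes p27, an inhibitor of Cdk2 complexes that many resting cells hold, moved the other way. Its levels were 2.92, 3.29, 3.19 and 3.31 at day 4. They were 2.97, 2.51, 2.40 and 2.32 at day 7, against 4.12, 3.73, 3.66 and 3.59 in normal podocytes. Every normal podocyte array was above every LMB2 array. The difference was -0.60 ± 0.16 at day 4 (adjusted p = 0.012) and -1.23 ± 0.16 at day 7 (2.34-fold lower, adjusted p = 1.8e-05). Day 7 was also -0.63 ± 0.16 against day 4 (adjusted p = 0.010), with replicate 1 of each day overlapping the other group's range. The day 4 call was not kept against normal podocytes of the same slide row (-0.45, adjusted p = 0.15) or with row as a term (-0.49, adjusted p = 0.058), and the day 7 call was.

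Glomerular RNA had Cdkn1b levels of 3.40, 3.10, 3.26 and 2.95, below the 4 normal podocyte arrays. Podocyte RNA was 0.60 ± 0.16 higher (1.51-fold, adjusted p = 0.0039), a call that quantile normalization ended (0.22, adjusted p = 0.16). Normal podocytes thus had the highest Cdkn1b levels and day 7 podocytes the lowest mean, with glomerular and day 4 arrays overlapping between them. For the Cdkn1a probe with repeated spots, day 7 had the highest mean and normal podocytes the lowest levels.

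Cdkn1c, which encodes p57, the CIP/KIP protein most closely tied to mature podocytes, was called at neither day. Its levels were 9.78, 9.84, 9.79 and 9.49 at day 4. They were 9.96, 10.03, 9.86 and 9.49 at day 7, against 9.52, 9.56, 9.55 and 9.52 in normal podocytes. The 4 normal arrays lay close together (SD 0.02), and day 4 and day 7 each overlapped them through replicate 4. The difference was 0.19 ± 0.13 at day 4 (unadjusted 95% interval -0.09 to 0.47, adjusted p = 0.31) and 0.30 ± 0.13 at day 7 (0.01 to 0.58, adjusted p = 0.072). Without day 7 replicate 4 the day 7 difference passed the test (0.41, adjusted p = 0.011), and a scaling that centred every array on its median gave -0.024. Before scaling, the processed signal was 215659 to 240366 at day 4, 226150 to 252353 at day 7 and 223117 to 267518 in normal podocytes.

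In glomerular RNA Cdkn1c lay at 7.21, 7.48, 7.43 and 7.02, under every podocyte array. Podocyte RNA was 2.25 ± 0.13 higher (4.77-fold, adjusted p = 3.3e-09), beside 2.32 for Nphs1 and 2.30 for Wt1. Both of those podocyte genes were lower at day 7: Nphs1 was -1.45 ± 0.16 and Wt1 -0.99 ± 0.10 against normal podocytes, and 10 of the 13 podocyte markers were called lower and 1 higher, against 36.0% and 21.1% of all 14574 tested genes. Whether the Cdkn1c change differed from that of the markers was not tested.

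Cdkn2a encodes p16 (Ink4a), which inhibits Cdk4 and Cdk6, and, in another reading frame, Arf, which stabilises p53. Its probes carry the same transcript annotation, and their position in the locus is not given, so the products were not told apart here. Probe A_55_P2008437 had levels of -5.76, -6.74, -5.97 and -4.73 at day 4, none of them above background. At day 7 it had -3.14, -3.40, -3.64 and -4.24, all above background, against -6.81, -7.12, -6.11 and -6.54 in normal podocytes, again none above background. The signal was therefore detected in tagged podocyte RNA at day 7 and not on the arrays of day 4 or of normal podocytes. It was at least 2.36-fold higher at day 7 than in normal podocytes (adjusted p = 2.1e-05) and at least 1.95-fold higher than at day 4 (adjusted p = 0.0013). The probe entered the test through the day 7 arrays alone, so these p-values, which belong to the fitted differences, are no support for a difference. After normexp the fitted differences were 0.57 from normal podocytes and 0.36 from day 4, both called but under those bounds. Between day 4 and normal podocytes no fold can be given (adjusted p = 0.14), and both groups were below background.

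In glomerular RNA the Cdkn2a probe was at -5.59, -4.17, -4.25 and -5.05, and only replicates 2 and 3 were above background. As fitted, normal podocytes were -1.88 against it (adjusted p = 7.7e-04), but with only those 2 glomerular arrays above background no fold can be given. That call ended after normexp background correction (-0.07, adjusted p = 0.54). The other Cdkn2a probe, A_55_P2008438, was not well above background on any of the 16 arrays, at -7.36 to -6.39, and was not tested.

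Cdkn2b encodes p15, an inhibitor of Cdk4 and Cdk6 that transforming growth factor beta induces in epithelial cells. Probe A_55_P1988183 had levels of -4.20, -3.49, -3.59 and -2.95 at day 4. It had -1.98, -1.55, -1.85 and -2.39 at day 7, against -3.33, -3.72, -2.54 and -4.26 in normal podocytes. Day 7 stood above the others, with normal replicate 3 the closest array beneath it, and day 4 overlapped the normal arrays. The day 7 difference was 1.52 ± 0.32 from normal podocytes (2.87-fold, adjusted p = 0.0011) and 1.61 ± 0.32 from day 4 (3.06-fold, adjusted p = 0.0022). After normexp these were 0.72 (adjusted p = 2.9e-04) and 0.69 (adjusted p = 0.0015), and with quantile normalization added 0.54 and 0.71, all still called. At day 4 it was -0.10 ± 0.32 (95% interval -0.78 to 0.59, adjusted p = 0.86).

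Glomerular RNA had Cdkn2b levels of -1.72, -1.68, -1.29 and -1.82, a range that overlapped day 7. Normal podocytes were -1.83 ± 0.32 against it (3.56-fold lower, adjusted p = 1.3e-04), and -0.81 after normexp (adjusted p = 5.5e-05). The second Cdkn2b probe, A_55_P1979526, was above background on the 4 glomerular arrays only, at -4.74, -4.67, -3.94 and -4.01, and entered the test through them alone. Podocyte RNA was at least 1.42-fold lower on it (adjusted p = 0.0084), and because of that entry the p-value is no support for a difference. Normexp ended the call (-0.02, adjusted p = 0.85), and no fold can be given among the podocyte groups.

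Cdkn2c, which encodes p18, another inhibitor of Cdk4 and Cdk6, had levels of -2.38, -4.31, -4.01 and -4.07 at day 4. It had -2.86, -2.78, -3.68 and -2.30 at day 7, against -4.11, -3.16, -3.97 and -3.81 in normal podocytes. Day 4 replicate 1 stood well above the other day 4 arrays, and all 3 podocyte groups overlapped. The differences were 0.07 ± 0.38 at day 4 (adjusted p = 0.91) and 0.86 ± 0.38 at day 7 (95% interval 0.05 to 1.67, adjusted p = 0.068). The day 7 value passed the test in a fit of the 8 arrays compared (adjusted p = 0.048) and after normexp (0.49, adjusted p = 0.013), and also without normal podocyte replicate 2 (1.06, adjusted p = 0.040) or day 7 replicate 3 (1.12, adjusted p = 0.024). Without day 4 replicate 1, day 7 was 1.22 above day 4 (adjusted p = 0.0074), against 0.79 ± 0.38 with it (adjusted p = 0.14).

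Glomerular RNA had Cdkn2c levels of -0.56, -0.03, -0.30 and -0.45, above every podocyte array. Normal podocytes were -3.43 ± 0.38 against it (10.8-fold lower, adjusted p = 1.4e-06), and -2.04 after normexp (adjusted p = 5.6e-09). Day 4 replicate 1 was also the day 4 array with the highest mean of the tubule markers (0.84 above the normal podocyte mean, the other 3 at -0.91 to -0.31), the leukocyte markers (1.15, the others -0.12 to 0.34) and the endothelial markers (-0.05, the others -1.05 to -0.65). For the mesangial markers day 4 replicate 1 was likewise highest (-0.01), but for the parietal markers replicate 4 was (0.29, replicate 1 at 0.22). Among day 7 arrays, replicate 4 had the highest Cdkn2c level and the highest tubule mean (1.38, the others -0.68 to -0.10), which was also the highest of all podocyte arrays. Its endothelial (0.20) and mesangial (1.26) means were also the highest of day 7, but its parietal (1.66) and leukocyte (0.58) means were not. Without day 7 replicate 4 the Cdkn2c difference at day 7 was 0.66 from normal podocytes (adjusted p = 0.18) and 0.58 from day 4 (adjusted p = 0.31). The part of other cells in these Cdkn2c levels was not tested.

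Cdkn2d, which encodes the INK4 protein p19 (a different protein from Arf), followed the direction of Cdkn1b. Its levels were 2.43, 2.84, 2.75 and 2.75 at day 4. They were 2.64, 2.49, 2.10 and 2.09 at day 7, against 3.30, 3.26, 3.13 and 2.99 in normal podocytes. Every LMB2 array was under every normal podocyte array. The difference was -0.48 ± 0.15 at day 4 (adjusted p = 0.025) and -0.84 ± 0.15 at day 7 (1.79-fold lower, adjusted p = 2.6e-04). The day 4 call ended in several settings, among them without day 4 replicate 1 (-0.39, adjusted p = 0.077), without normal podocyte replicate 1 (-0.44, adjusted p = 0.068) or 2 (-0.45, adjusted p = 0.062), and against normal podocytes of the same slide row (-0.37, adjusted p = 0.25). Day 7 was -0.36 ± 0.15 against day 4 (adjusted p = 0.089), and passed the test without day 4 replicate 1 (-0.45, adjusted p = 0.0499) or day 7 replicate 1 (-0.46, adjusted p = 0.037).

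Glomerular RNA had Cdkn2d levels of 2.50, 2.49, 2.58 and 2.11, within the range of the LMB2 arrays and below normal podocytes. Podocyte RNA was 0.75 ± 0.15 higher (1.68-fold, adjusted p = 3.7e-04).

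**Figure D3:**
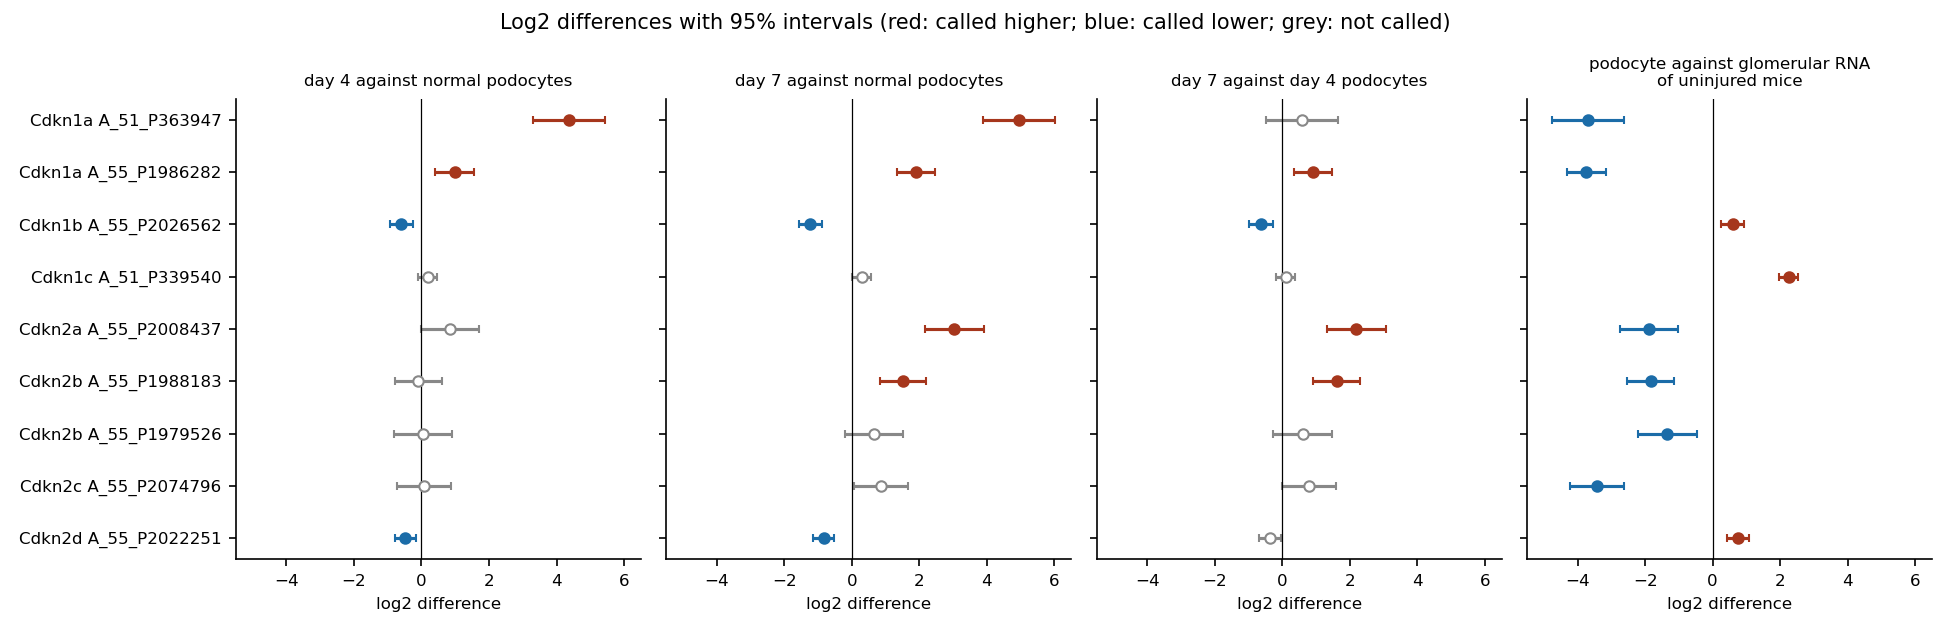
Log2 difference with its 95% interval for each tested member probe in the 4 comparisons (the first group in each panel title minus the second); red is called higher, blue called lower, grey not called. Probes that were below background in a group show the fitted difference, not any bound given in the text. The Cdkn1a probe with repeated spots lies at 4.38 at day 4 and 4.96 at day 7, and Cdkn1b and Cdkn2d lie left of 0 at both days.

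Markers of other cells were read beside the members. As means over a list relative to normal podocytes, the 11 mesangial and smooth muscle markers were at 0.73 to 1.26 on the day 7 arrays, against -0.37 to 0.44 on the normal podocyte arrays and 2.81 to 3.33 on the glomerular arrays. Of these 11 genes, 3 were called higher and none lower at day 7, against 21.1% and 36.0% of all tested genes. The 3 were Tagln (6.01), Des (3.02) and Acta2 (1.59), and the list's median difference was 0.11, well under its mean. The 7 parietal epithelial markers were at 0.55 to 1.83 at day 7, against -0.14 to 0.07 in normal podocytes, and 6 of the 7 were called higher, among them Cd44 (2.32 ± 0.33), Cldn1 (2.21 ± 0.35) and Krt18 (2.13 ± 0.42). Day 7 replicate 3 was the lowest of that group for the parietal list. The leukocyte markers were at 0.54 to 0.99 at day 7, against -0.29 to 0.62 in normal podocytes, with 4 of 12 called higher at each day. The tubule markers were at -0.68 to 1.38 at day 7, against -0.36 to 0.68 in normal podocytes, with none called higher and 1 lower. The endothelial markers were at -0.34 to 0.20 at day 7, against -0.36 to 0.34 in normal podocytes, with none called higher and 2 of 12 lower. On every podocyte array all 12 endothelial and all 11 mesangial genes were well above background, as were 6 to 10 of the 12 leukocyte genes. At day 4 no parietal list gene and no tubule list gene was called. The members called lower in podocyte than in glomerular RNA and higher at day 7 were Cdkn1a, Cdkn2a and Cdkn2b. For Cdkn2a both calls rest on a dim probe that entered the test through the day 7 arrays alone. Its call against glomerular RNA ended after normexp. The part of other cells in the levels of these members was not tested.

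The partners and targets of the inhibitors were read from gene lists, with 1 probe per gene. Of 8 measured cyclins, 4 were higher and 2 lower at day 4, and 5 were higher and 1 lower at day 7. The list medians were 0.59 and 1.67, against -0.12 and -0.14 over all 14574 tested genes, of which 12.1% were higher and 18.9% lower at day 4 and 21.1% higher and 36.0% lower at day 7. Ccna2, the cyclin of DNA replication and early mitosis, was 4.36 ± 0.38 higher at day 4 (adjusted p = 6.5e-07) and 4.19 ± 0.38 higher at day 7 (adjusted p = 5.1e-07). Ccnb2, a mitotic cyclin, was 2.96 ± 0.39 and 4.29 ± 0.39 higher at those days.

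Ccnd1, the D-type cyclin that INK4 proteins keep from Cdk4 and Cdk6, changed sign between the days. It was -0.66 ± 0.22 at day 4 (adjusted p = 0.031) and 2.13 ± 0.22 at day 7 (adjusted p = 1.6e-06) against normal podocytes, and day 7 was 2.79 ± 0.22 above day 4 (adjusted p = 9.5e-07). Of 7 cyclin-dependent kinases, none was called higher and 2 lower at day 4, and 1 was higher and 3 lower at day 7. Over all 14574 tested genes the shares were 12.1% higher and 18.9% lower at day 4, and 21.1% and 36.0% at day 7. The medians of the kinase list were -0.26 and -0.42, against -0.12 and -0.14 over all tested genes. Cdk6 was 1.79 ± 0.18 higher at day 7 (adjusted p = 1.5e-06), Cdk2 was -0.81 ± 0.15 at day 4 and -0.44 ± 0.15 at day 7, and Cdk4 differed by -0.04 ± 0.10 and -0.07 ± 0.10, neither called. Cdk1, the mitotic kinase, was above background on 1 of 4 arrays at day 7 and on none at day 4 or in normal podocytes.

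Of 12 retinoblastoma family and E2F genes, which the kinases act on, none was called higher; 3 were lower at day 4 and 6 at day 7. E2f1 was -1.25 ± 0.22 and Rbl2 -0.84 ± 0.11 at day 7, and Rb1 was not called at either day (0.16 ± 0.11 and 0.17 ± 0.11). Among 14 mitosis genes, day 4 had 8 called higher and 1 lower, and day 7 had 9 called higher and none lower, with list medians of 1.78 and 2.67. Birc5 (survivin) was 6.41 ± 0.34 higher at day 4 and 5.14 ± 0.34 at day 7. Mki67, the proliferation marker, was -0.66 ± 0.49 at day 4 (adjusted p = 0.34) and 1.74 ± 0.49 at day 7 (adjusted p = 0.0077). A further 6 mitosis genes did not meet the background filter and were not tested. Among 19 DNA replication genes, day 4 had 2 called higher and 3 lower, and day 7 had 7 called higher and 4 lower. The medians of that list were -0.08 and 0.24, with Rrm2 at 2.01 ± 0.39 and 2.87 ± 0.39.

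**Figure D4:**
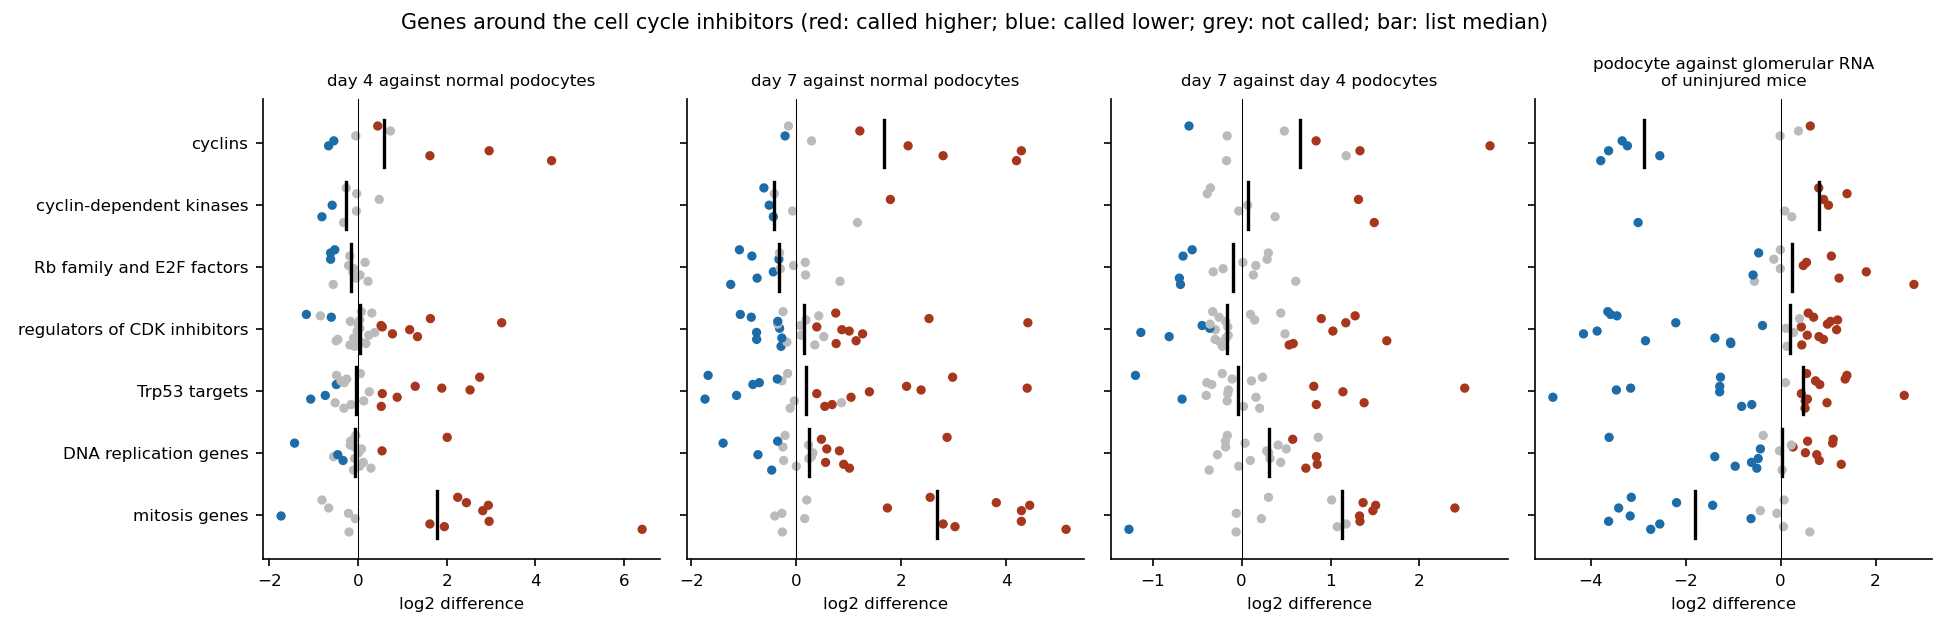
Log2 difference of each measured gene of 7 lists around the inhibitors, in the 4 comparisons, with the list median as a bar; red is called higher, blue called lower, grey not called. The medians of the mitosis list lie at 1.78 at day 4 and 2.67 at day 7, and those of the E2F list at -0.15 and -0.32.

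Genes that act upstream of the inhibitors were mixed. Of 26 measured regulators, 7 were higher and 2 lower at day 4, and 9 were higher and 8 lower at day 7. The medians of that list were 0.05 and 0.14. Myc, which represses several inhibitor genes, was below background in normal podocytes and at least 4.60-fold higher at day 4 and at least 10.4-fold higher at day 7. Smad4, a transducer of transforming growth factor beta signals, was 1.63 ± 0.21 and 2.53 ± 0.21 higher. Trp53 (p53) was 0.31 ± 0.19 at day 4 (adjusted p = 0.25) and 0.75 ± 0.19 at day 7 (adjusted p = 0.0046). Of 20 p53 targets other than Cdkn1a, 7 were higher and 3 lower at day 4, and 9 were higher and 6 lower at day 7. Tnfrsf10b, a death receptor gene, was 2.74 ± 0.19 and 2.98 ± 0.19 higher, Phlda3 2.53 ± 0.18 and 2.38 ± 0.18, and Plk2 1.89 ± 0.36 and 4.40 ± 0.36. Mdm2, which targets p53 for degradation, was 0.55 ± 0.09 and 0.39 ± 0.09 higher, whereas Gadd45a was -0.74 ± 0.24 and -1.14 ± 0.24.

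The genes whose levels ran most like each member over the 16 arrays were ranked by Pearson's r among 14567 genes. The arrays fall into 4 groups, so these values include the differences between groups, and they carry no p. For Cdkn1a (A_51_P363947) they were Ccna2 (r = 0.955), Flt3 (0.952) and Gnal (0.943). For Cdkn1b they were Zfp949 (0.956), Snx21 (0.951) and Ypel3 (0.950). For Cdkn1c they were Olfr629 (0.996), Gsn (0.994) and Cd151 (0.991), each of which was higher in podocyte than in glomerular RNA. For Cdkn2a they were Cd44 (0.933), Donson (0.930) and Pdlim7 (0.929), of which Cd44 is also on the parietal list. For Cdkn2b they were Ppp1r3d (0.961), Ccn4 (0.945) and Tspyl3 (0.935). For Cdkn2c they were Rtn4rl1 (0.976), Tspan7 (0.974) and Ly6c1 (0.974), and for Cdkn2d Plaat3 (0.945), 1700025G04Rik (0.944) and Fance (0.939).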

How the data were processed

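Cy3-labelled RNA of 16 arrays was read. The authors deposited scanner files whose processed signal is an intensity, background-subtracted within the array by Agilent Feature Extraction 11.5.1.1, per the file headers and the submitters' processing notes. A value table deposited by the authors covers 39430 probes on a log2 scale; each column was a shift of 1 array's log2 signal, by a method not given in the sources used here. In it, 6 of its columns (replicates 1 to 3 of both uninjured groups) matched another replicate of the same group in the scanner files, so it served as an alternative. Levels are log2 processed signal minus the array's 75th percentile. Control spots and outlier-marked spots were left out, and spots of a probe were averaged. Probes were named through RefSeq accessions (26582 probes named, 29099 unnamed). Tests used limma 3.58.1 in R 4.3.3 with all 16 arrays in 1 model of 4 groups, Benjamini-Hochberg over the 29697 probes that all 4 arrays of some group read well above background. The code was tested on simulated data.

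The number of arrays limits precision. Same-numbered podocyte and glomerular arrays of uninjured mice deviated together (r = 0.364 to 0.532, 4 of 4 pairs), so those numbers were read as pairs. In the other comparisons they were not (r = -0.368 to 0.390). The differences, SEs and p-values given come from the fit with group only, and the pairs entered only the alternative with a replicate block. Row on the slide runs with those pairs. The members, gene lists and tests were chosen with earlier results of these data known. Named genes were all member probes, for each member the 3 genes with the highest Pearson correlation, and genes drawn from up to 3 called higher and 3 called lower per list and comparison by size, plus a set of cell cycle and podocyte genes given by name (of which Skp2 had no probe). Alternatives covered scaling, background correction, dim-probe filters, the samples fitted, the replicate block, the value table, the variance model, each replicate left out, and, chosen after seeing the data, slide row and leaving out together day 4 replicate 1 and normal podocyte replicate 4, the arrays with the highest tubule marker mean of those groups. Figures were drawn with matplotlib 3.10.9.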

Additional observations from a re-analysis of the deposited data

Results flagged for a closer look

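Cdkn2c (A_55_P2074796) on day 4 replicate 1 was at -2.38, and the other 3 day 4 arrays were at -4.31 to -4.01; the gap was large beside the group's range. This was 1 of 40 groups of arrays checked, and chance marks about 1 in 20.

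The change from normal podocytes differed between day 7 and day 4, by the limma contrast of the days, on 4 of 9 member probes. Over all tested probes, 26.7% were called between the days. Day 7 minus day 4 was 0.91 log2 units for the second Cdkn1a probe (A_55_P1986282), -0.63 for Cdkn1b, 2.19 as fitted for Cdkn2a (below background at day 4) and 1.61 for Cdkn2b. Day 7 arrays were above every day 4 array for the second Cdkn1a probe, Cdkn2a and Cdkn2b, and 3 of 4 day 7 arrays were below every day 4 array for Cdkn1b. Cdkn2a met the background filter through the day 7 arrays alone, so its place here is no support for a difference. The call ended in 5 of 20 alternative settings for the second Cdkn1a probe and in 1 of 22 for Cdkn1b. Day and slide row cannot be told apart in these arrays.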

How the results depend on the processing

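The number of called member probes at day 4 was 4, with 3 to 5 on leaving out each replicate in turn. It was 1 with a replicate block, 1 with normal podocytes of the same slide row only and 2 with row as a term. Without day 4 replicate 1 and normal podocyte replicate 4 together it was 2. Calls over all 29697 tested probes also fell, from 8859 to 4750, 4810, 6950 and 7369 in those settings, in the same order. At day 7 the number of called member probes was 6 (6 to 7 on leaving out replicates, 4 to 8 in all settings). Between the days it was 4 (3 to 6 on leaving out replicates, 2 among probes well above background on all 16 arrays, where fewer member probes were tested). Between podocyte and glomerular RNA it was 9 in every fit that left out a replicate and 6 to 9 in all settings. With the replicate block in the paired podocyte and glomerular arrays all 9 stayed called; the block gave 7 at day 7 and 3 between the days (Cdkn1b no longer called, adjusted p = 0.096), where the numbers do not pair the arrays. Of the single-probe values under alternatives, 753 kept their direction and side of the threshold, 30 lost a call, 13 gained a call and 21 changed sign.

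The sign changes were all of differences that were not called; Cdkn1a between the days was -1.02 with row as a term. Setting each array's median to 0 moved the median of all probes to -0.35 at day 4 and -0.40 at day 7, and gave Cdkn1c -0.075 and -0.024, Cdkn2c -0.19 and Cdkn2b (A_55_P1979526) -0.21 at day 4. Quantile normalization gave Cdkn2c -0.15 and that Cdkn2b probe -0.12 at day 4, and Cdkn1c -0.059 between the days. Normexp with quantile normalization gave -0.098 for that Cdkn2b probe and -0.035 for Cdkn1c between the days; normexp with the 75th percentile gave 0.032 for Cdkn2b (A_55_P1988183) at day 4. Row as a term gave -0.093 for Cdkn2b (A_55_P1979526), and leaving out day 4 replicate 1 and normal podocyte replicate 4 together gave -0.38 for Cdkn2c. On leaving out replicates at day 4, Cdkn2b ranged from -0.36 to 0.21 (A_55_P1988183) and from -0.25 to 0.39 (A_55_P1979526), and Cdkn2c from -0.36 to 0.28. The cause was not tested. Slide as a block could not be fitted, since each slide held only injured or only uninjured mice. Dim signal limits Cdkn2a, the second Cdkn1a probe and the second Cdkn2b probe.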
